A study of Mus musculus with 2 samples.

Results

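The genes described here make sterols and fatty acids or control that synthesis. They are 31 genes chosen by symbol from textbook pathway membership, 20 of them enzymes from acetyl-CoA to cholesterol, 6 in SREBP control and sterol transport, and 5 in fatty acid synthesis. All 31 had a value, among 10982 protein-coding genes in all after lines of the same symbol were summed. The unit of expression, FPKM, scales fragments by transcript length and by library size, so levels of different genes are compared per length.

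Cells build cholesterol in the endoplasmic reticulum (ER) from acetyl-CoA through mevalonate, isoprenoid diphosphates, squalene and lanosterol. The pathway is controlled by SREBP transcription factors, which are made as ER membrane proteins. When ER sterol is low, SCAP escorts SREBP to the Golgi, where proteases release the active factor. When sterol is plentiful, INSIG proteins hold the SCAP and SREBP complex in the ER. SREBP2 acts mainly on sterol genes and SREBP1 mainly on fatty acid genes.

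There were 2 libraries, each from mouse neonatal heart cells labelled as cardiomyocytes. One library came from cells transfected with a negative control, and the other from cells transfected with an antagomir, a chemically modified antisense oligonucleotide that blocks a small RNA. Its target was FERPIR, a piRNA, the small RNA class that PIWI proteins bind. A treatment label of PBS is attached to both, and the strain, the number of animals or cultures behind each library and the nature of the negative control are not stated in the labels. FERPIR itself was not analysed here, so its knockdown was not checked. With 1 library per group no difference has a replicate check or a p-value, and every statement below describes these 2 libraries.

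The FPKM values summed to 295404 in the control library against 312806 with the antagomir. Of 11 cardiomyocyte markers only Tnnt2, Tnnc1 and Nkx2-5 had values, together 19.6 and 43.5 FPKM in the control and antagomir library. Myh6, Myh7, Tnni3, Actc1, Ryr2, Nppa, Myl2 and Myl7 had none in the table used here, which is not read as absence of expression. Of 9 fibroblast markers 6 had values, summing to 548 and 341 FPKM, and Col3a1 made up most of both sums. Of the 6, 5 were lower, beside 54% of all genes with at least 1 FPKM in either library, and Pdgfra was higher. At least 1.5-fold lower were 3 of the 6, beside 13.4% of all genes. Of 4 smooth muscle markers 3 had values: Acta2 was lower (1304 and 845 FPKM), and Tagln (18.2 and 37.8 FPKM) and Cnn1 (1.79 and 2.91 FPKM) were higher. The defining endothelial markers (6 listed) had no values, and 1 of 5 leukocyte, 1 of 4 adipocyte, 2 of 4 red cell and 1 of 3 epicardial markers had one. No marker with a value was listed at 0. The part of these marker differences in the results below was not tested, and in bulk samples fewer cells of a type and less RNA per cell cannot be told apart.

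Most genes of sterol and fatty acid synthesis had lower values in the antagomir library. The 31 genes summed to 515 FPKM in the control library against 375 FPKM with the antagomir, which is 0.1743% and 0.1198% of all FPKM in the table. The difference of each gene is given as a log2 ratio, log2 of (antagomir FPKM + 1) over (control FPKM + 1), and folds are on the same scale, which understates differences of low genes. Of the 31 genes 30 reached 1 FPKM in the higher library, and Acss2, at 0.92 FPKM in both, did not. Among these 30, 24 had a log2 ratio below 0, where 54% of all 10201 genes at that level did. Their median log2 ratio was -0.36, and that of all genes was -0.05.

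At a limit of 1.5-fold, 9 of the 30 were lower in the antagomir library, against 13.4% of all genes. They were Fdft1, Sqle, Fdps, Nsdhl, Lss, Lbr, Fasn, Hsd17b7 and Idi1. Pmvk alone was at least 1.5-fold higher, where 10.8% of all genes were. At 2-fold only Fdft1 and Sqle were lower and none was higher, against 3.79% and 2.88% of all genes. Several genes lay close to the 1.5-fold limit, at a log2 ratio of 0.585. Just inside it were Idi1 (a log2 ratio of -0.59) and Hsd17b7 (-0.60), and just outside were Elovl6 (-0.53) and Insig1 (-0.53).

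**Figure D1:**
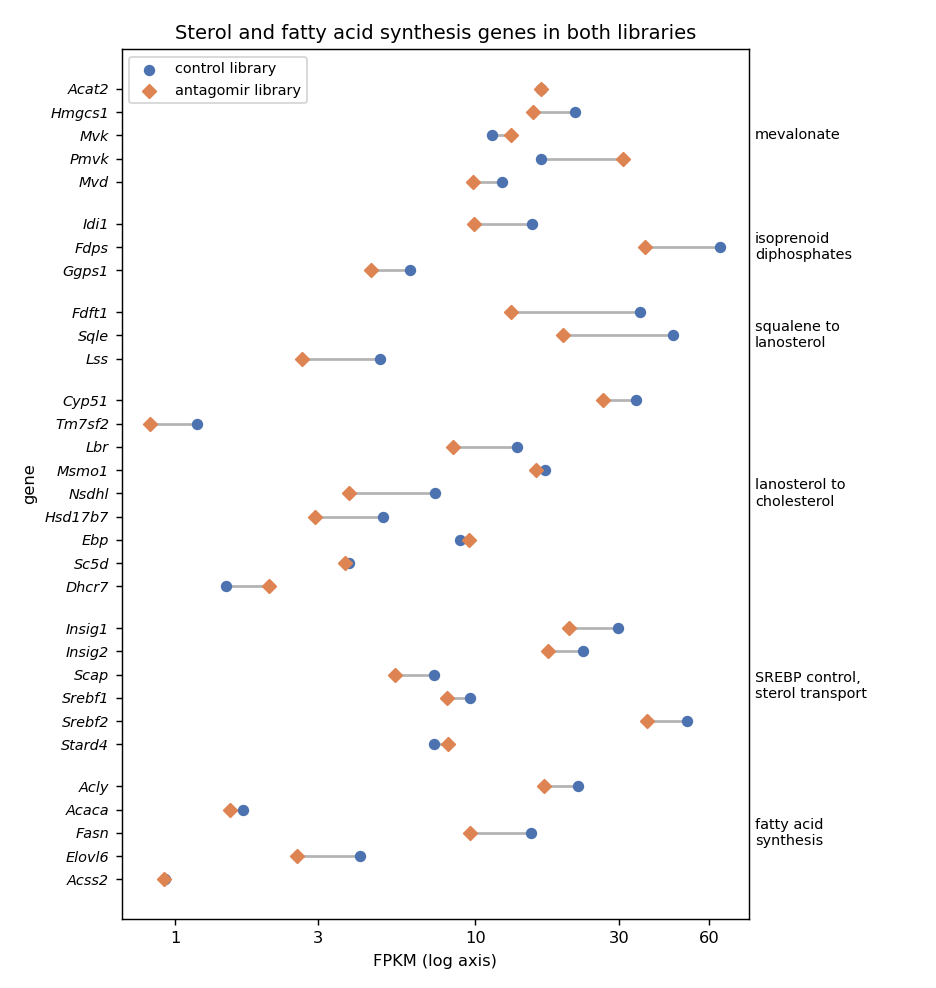
FPKM (log axis) of each of the 31 genes in the control library (circles) and the antagomir library (diamonds), ordered by pathway step. The widest gaps are at Fdft1 (35.3 and 13.1 FPKM) and Sqle (45.5 and 19.6 FPKM), and Pmvk goes the other way (16.5 and 30.997 FPKM).

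The log2 ratio varied with transcript length across the table. When all genes were put in 5 equal bins by transcript length, the median log2 ratio went from 0.26 in the bin of shortest transcripts to -0.20 in that of the longest. From the shortest to the longest bin, 0 of 3, 1 of 6, 4 of 7, 2 of 10 and 2 of 4 of the 30 genes were at least 1.5-fold lower. Of all genes, 147 of 2041, 252 of 2037, 285 of 2038, 323 of 2037 and 357 of 2039 were so in the same order of bins. With the trend over length and GC content removed together, 4 of 30 genes were 1.5-fold lower, which is 13.3%, beside 13.2% of all genes treated in the same way. These 4 were Fdft1, Sqle, Nsdhl and Fdps. The other 5 ended short of the limit of 0.585. Lbr went from -0.65 to -0.58, Idi1 from -0.59 to -0.56, Fasn from -0.62 to -0.53, Lss from -0.67 to -0.51 and Hsd17b7 from -0.60 to -0.48. The median log2 ratio of the 30 genes was then -0.37, against -0.05 for all genes.

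**Figure D2:**
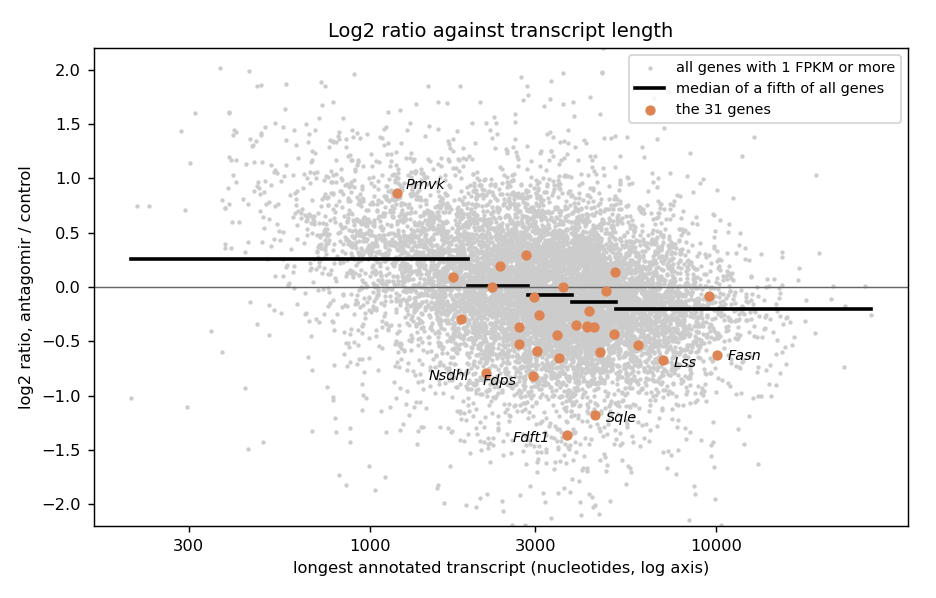
Log2 ratio against the length of the longest annotated transcript (log axis) for all genes with at least 1 FPKM in either library (grey) and for the 31 genes (orange), with black bars at the median of each of 5 length bins. The vertical axis ends at 2.2 in both directions and leaves out 24 genes. The bars descend from 0.26 to -0.20, and most orange points lie below the bar at their length.

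The promoters of these genes share a feature that the choice of genes did not use. In RefSeq promoter windows of build GRCm38.p6, 250 bases before to 50 after an annotated start, 27 of the 31 genes were found, without Fdps, Fdft1, Sqle and Stard4. The letters CCAAT, the core of the site bound by NF-Y, a factor known to work beside SREBP, were searched on both strands. They stood in at least 1 window of 23 of the 27 genes (85.2%), against 44.2% of the 8537 genes of the table with a window and 41.1% of all 27025 genes with one. CCAAT occurred at least 2 times in 1 window for 13 of the 27 (48.1%), against 17.6% of the table's genes. The 4 genes without it were Acat2, Scap, Acaca and Elovl6. Genes differ in their number of windows, since 5 of the 27 have more than 1.

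The sterol regulatory element was searched as TCACNCCAC on both strands and stood in 1 of the 27 genes, Hmgcs1, against 1.31% of the table's genes. A shorter form, CACNCCAC, which overlaps every match of the longer one, was added after the first search. It stood in Hmgcs1, Insig1 and Acat2 (11.1%), against 7.33%. The E-box CACGTG, a palindrome, stood in Hsd17b7, Sc5d, Dhcr7, Insig1 and Scap (18.5%), against 12.2%. The numbers of genes with these 3 motifs are small, and no match says only that these letters are not in this window.

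Promoters of 5 genes are printed as the 250 bases before the start, 5′ to 3′ on the gene's own strand, as examples with different log2 ratios, among them the genes with the sterol element and with the most copies of CCAAT. Capitals mark every match of CCAAT on either strand, of both forms of the sterol element and of the E-box. Hmgcs1 is at chr13:119690101-119690350, Idi1 at chr13:8885356-8885605, Insig1 at chr5:28071162-28071411, Nsdhl at chrX:72918271-72918520 and Mvk at chr5:114444019-114444268, all on the plus strand.
Hmgcs1: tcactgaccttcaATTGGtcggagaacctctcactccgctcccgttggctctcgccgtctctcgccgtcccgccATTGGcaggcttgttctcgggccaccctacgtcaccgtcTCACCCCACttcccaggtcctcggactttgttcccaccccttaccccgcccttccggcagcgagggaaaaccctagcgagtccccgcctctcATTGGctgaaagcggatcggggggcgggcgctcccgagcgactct
Idi1: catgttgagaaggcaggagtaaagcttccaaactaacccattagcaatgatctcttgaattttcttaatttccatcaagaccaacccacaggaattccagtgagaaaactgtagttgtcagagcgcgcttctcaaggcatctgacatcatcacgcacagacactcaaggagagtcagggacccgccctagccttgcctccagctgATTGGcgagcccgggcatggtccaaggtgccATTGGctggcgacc
Insig1: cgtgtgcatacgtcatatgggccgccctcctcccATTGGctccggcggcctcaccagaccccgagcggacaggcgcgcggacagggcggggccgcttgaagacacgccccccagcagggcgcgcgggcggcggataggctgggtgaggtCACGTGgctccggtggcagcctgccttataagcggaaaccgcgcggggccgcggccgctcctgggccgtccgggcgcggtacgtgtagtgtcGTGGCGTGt
Nsdhl: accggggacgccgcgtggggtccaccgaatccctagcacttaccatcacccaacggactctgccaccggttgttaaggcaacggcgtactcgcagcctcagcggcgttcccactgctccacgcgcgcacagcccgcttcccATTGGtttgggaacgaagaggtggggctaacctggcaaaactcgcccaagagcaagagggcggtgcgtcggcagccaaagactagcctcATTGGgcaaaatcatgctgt
Mvk: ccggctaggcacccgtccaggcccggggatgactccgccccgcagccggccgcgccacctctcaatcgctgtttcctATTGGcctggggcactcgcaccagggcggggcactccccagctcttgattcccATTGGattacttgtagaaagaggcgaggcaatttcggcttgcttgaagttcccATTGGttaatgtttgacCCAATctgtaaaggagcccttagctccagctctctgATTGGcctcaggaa

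In Hmgcs1 the sterol element begins 137 bases before the start, between CCAAT letters that begin 176 and 45 bases before it. Further copies begin 237 bases before the start and 10 bases after it, the latter beyond the printed stretch. Idi1 has CCAAT 45 and 14 bases before the start. Nsdhl has CCAAT 109 and 20 bases before the start, and again 8 and 34 bases after it, beyond the printed stretch. Insig1 has the E-box 101 bases before the start and CCAAT 216 bases before it. Its shorter sterol element, on the other strand, begins 9 bases before the start. The start here is that of RefSeq. As listed with the FPKM values, Idi1 begins at base 8885501 and Insig1 at base 28071363, within the printed stretches. Both CCAAT copies of Idi1 and the shorter sterol element of Insig1 lie after those bases. Mvk holds CCAAT 5 times, more than any other of the 27 genes, and its FPKM was slightly higher in the antagomir library (11.4 and 13.2 FPKM). Idi1, with 2 copies, and Nsdhl, with 4, had log2 ratios of -0.59 and -0.79. Across the table's genes with at least 1 FPKM, those with CCAAT had a median log2 ratio of -0.03 and those without it one of -0.07, and 13.7% and 12.8% of them were at least 1.5-fold lower. Among the genes of sterol and fatty acid synthesis with a window and at least 1 FPKM, the 22 with CCAAT had a median of -0.36 with 6 at least 1.5-fold lower, and the 4 without it had a median of -0.23 with none. The 105 genes with the sterol element TCACNCCAC had a median of -0.13 and those without it one of -0.05, with 15.2% and 13.2% at least 1.5-fold lower. For the shorter form the medians were -0.07 over 586 genes with it and -0.05 without it, with 15.7% and 13.0% lower. For the E-box they were -0.14 over 979 genes with it and -0.04 without it, with 15.3% and 12.9% lower.

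In the first steps, from acetyl-CoA to isopentenyl diphosphate, the genes differed in direction. Acat2 makes acetoacetyl-CoA in the cytosol and had 16.5 FPKM in both libraries. Hmgcs1, the cytosolic HMG-CoA synthase, had 21.5 FPKM in the control library against 15.6 FPKM with the antagomir, a log2 ratio of -0.44. The mevalonate kinase gene Mvk had a log2 ratio of 0.19, from the values given above. Pmvk, the next kinase, had 16.5 and 30.997 FPKM, 1.83-fold higher, and Mvd, the decarboxylase after it, had 12.3 and 9.83 FPKM, 1.22-fold lower. Genes for consecutive enzymes thus lay on both sides of 0. Among these 5 genes none was 1.5-fold lower, beside 13.4% of all genes. Their median log2 ratio was 0.00, which turned slightly negative under rescaling or removal of the trend.

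Pmvk lies at chr3:89454541-89469013 of build GRCm38. Its longest transcript, 1194 nucleotides, is the shortest of the 31, and with the trend over length and GC content removed its log2 ratio was 0.53 in place of 0.87, under the 1.5-fold limit. It moved from rank 11 of the 31 by FPKM in the control to rank 3 in the antagomir library.

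The isoprenoid diphosphate genes were lower in the antagomir library. Idi1, the isomerase that provides dimethylallyl diphosphate, had 15.4 and 9.92 FPKM. Fdps, which makes farnesyl diphosphate at the branch between sterols and other isoprenoids, had 65.4 and 36.7 FPKM, 1.76-fold lower. It was the most abundant of the 31 genes in the control library. Ggps1, which leads away from sterols to geranylgeranyl diphosphate, had 6.04 and 4.50 FPKM, a log2 ratio of -0.36. Its exons overlap those of Arid4b on the opposite strand, and exons of Fdps overlap the predicted gene Gm43738.

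The step from farnesyl diphosphate to lanosterol held the lowest ratios of the 31 genes. Fdft1, squalene synthase, the first enzyme committed to sterols, had 35.3 FPKM in the control library against 13.1 FPKM with the antagomir, 2.57-fold lower at a log2 ratio of -1.36. Only 1.58% of all genes had a lower ratio. Sqle, squalene monooxygenase, an oxygen-dependent and rate-limiting enzyme, had 45.5 and 19.6 FPKM, a log2 ratio of -1.18, with 2.41% of all genes lower. Lss, which closes squalene epoxide to lanosterol, was low in both libraries, at 4.81 and 2.65 FPKM, 1.59-fold lower. All 3 genes of this step were thus at least 1.5-fold lower, beside 13.4% of all genes. Lss came under the limit with the trend removed, at a log2 ratio of -0.51.

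Fdft1 lies at chr14:63145150-63179578 on the minus strand and Sqle at chr15:59315077-59331192 on the plus strand. Exons of Fdft1 overlap those of Ctsb, a lysosomal protease gene on the opposite strand, which had 149 and 91.2 FPKM, 1.62-fold lower. Since strand use in counting is not given in the sources used here, reads of Ctsb and Fdft1 cannot be told apart where they overlap. Sqle has no such overlap, and its log2 ratio ranged from -1.29 to -1.07 over all alternatives. In the control library Sqle ranked 3 and Fdft1 ranked 4 among the 31 genes by FPKM, and in the antagomir library they ranked 6 and 13.

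**Figure D3:**
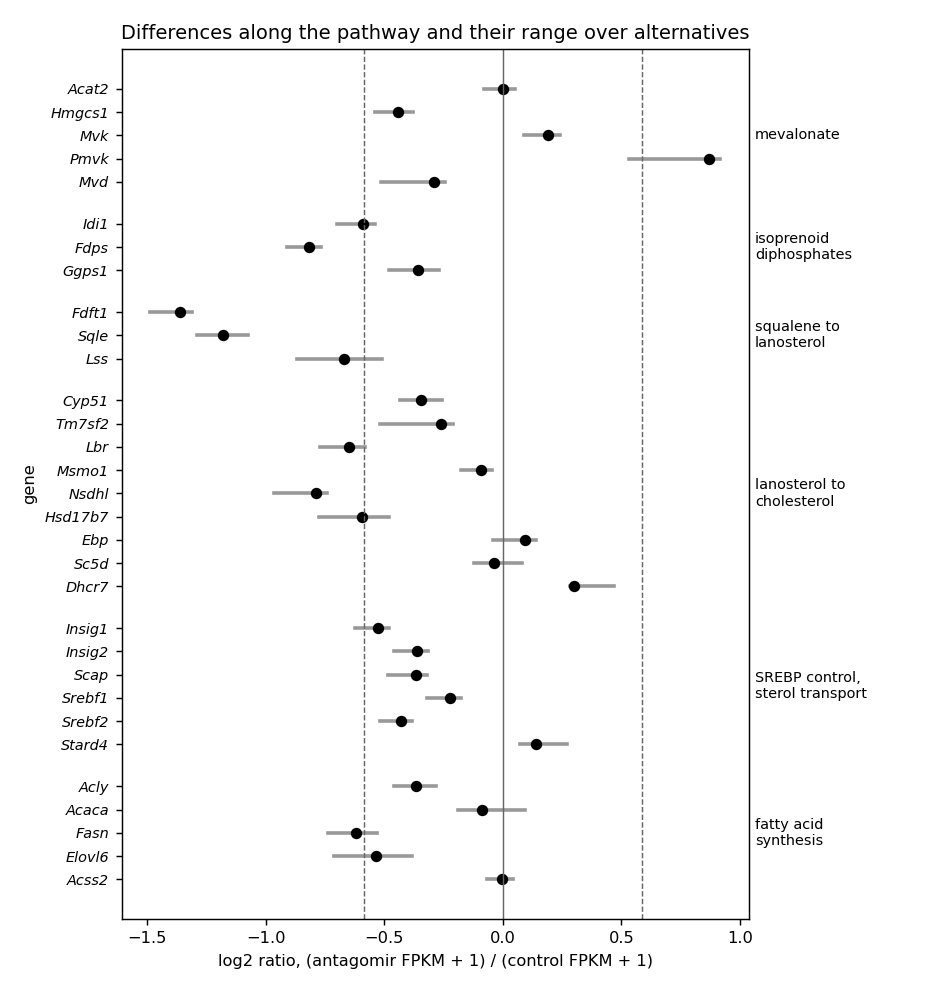
Log2 ratio of each of the 31 genes (points) and its range over all processing alternatives (grey bars), ordered by pathway step, with dashed lines at 1.5-fold in both directions. Fdft1, Sqle, Fdps and Nsdhl stay left of the lower dashed line over their whole range, and the other 5 genes 1.5-fold lower have bars that cross it. Genes with overlapping exons, Fdft1 and Fdps among them, have no value in the alternative that omits such genes.

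From lanosterol to cholesterol the median was -0.26 on the log2 scale. Of these 9 genes 3 were at least 1.5-fold lower (33.3%, beside 13.4% of all genes) and none higher (beside 10.8%). Of the 3, Lbr and Hsd17b7 came under the limit with the trend removed, at log2 ratios of -0.58 and -0.48. Nsdhl, a dehydrogenase in the removal of the methyl groups of lanosterol, had 7.31 and 3.81 FPKM, 1.73-fold lower. Hsd17b7, the keto reductase of the same reaction series, had 4.93 and 2.92 FPKM, 1.51-fold lower. Msmo1, the oxidase that starts this series, had 17.1 and 15.9 FPKM, a log2 ratio of -0.09. Enzymes of 1 reaction series therefore differed among themselves in these libraries.

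Cyp51, the lanosterol demethylase, had 34.1 and 26.6 FPKM, 1.27-fold lower, with exons that overlap those of Akap9. The reductase step after it can be carried out by the products of Lbr and Tm7sf2. Lbr, also known as the lamin B receptor of the inner nuclear membrane, had 13.8 and 8.43 FPKM, 1.57-fold lower. Tm7sf2 was low, at 1.19 and 0.83 FPKM, and shares exonic sequence with Vps51. Among the last enzymes, Ebp and Sc5d showed smaller differences. Ebp, the sterol isomerase, had 8.90 and 9.56 FPKM, Sc5d, the desaturase, had 3.80 and 3.68 FPKM, and the sign of both log2 ratios turned with the trend removed. Dhcr7, the reductase of the last step, had 1.48 and 2.05 FPKM, a log2 ratio of 0.30 at low levels.

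The control genes of the pathway were all lower by less than 1.5-fold, apart from the sterol carrier gene Stard4. Insig1 passed that limit on rescaling to TPM and on rescaling without mitochondrial, hemoglobin and ribosomal protein genes, at a lowest log2 ratio of -0.62. Srebf2, which encodes SREBP2, had 50.7 and 37.4 FPKM, a log2 ratio of -0.43, and ranked first of the 31 genes in the antagomir library. Srebf1 had 9.58 and 8.06 FPKM, a log2 ratio of -0.22. Scap, whose product escorts SREBP, had 7.27 and 5.41 FPKM. Insig1, itself a known SREBP target, had 29.9 and 20.5 FPKM, 1.44-fold lower, and Insig2, whose product also retains SCAP, had 22.7 and 17.4 FPKM, 1.29-fold lower. Stard4, a cytosolic carrier of cholesterol, had 7.30 and 8.14 FPKM, a log2 ratio of 0.14. The median of these 6 genes was -0.37, close to that of the 30 genes together.

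In fatty acid synthesis 4 of 5 genes reached 1 FPKM, with a median log2 ratio of -0.45. Fasn, the synthase that builds palmitate, had 15.3 and 9.59 FPKM, 1.54-fold lower, and came under the limit with the trend removed (a log2 ratio of -0.53). Its longest transcript, 10050 nucleotides, is the longest of the 31. Elovl6, which elongates palmitate, had 4.14 and 2.55 FPKM, 1.45-fold lower. Acly, which provides cytosolic acetyl-CoA from citrate, had 22.01 and 16.86 FPKM. Acaca, which makes malonyl-CoA, had 1.69 and 1.53 FPKM, and removal of the trend moved its log2 ratio from -0.09 to 0.09. Acss2, which makes acetyl-CoA from acetate, was listed at 0.92 FPKM in both libraries.

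Products that sit in the ER or nuclear membrane and soluble products were set side by side. The 18 membrane genes had a median log2 ratio of -0.40, with 16 below 0 and 6 at least 1.5-fold lower (33.3%). The 12 soluble ones with at least 1 FPKM had a median of -0.32, with 8 below 0, 3 at least 1.5-fold lower (25.0%) and 1 higher. Of all genes 54% were below 0, 13.4% at least 1.5-fold lower and 10.8% higher. The membrane genes summed to 303 and 200.5 FPKM and the soluble ones to 211 and 173 FPKM. Without genes whose exons overlap those of another gene the medians were -0.40 over 10 membrane and -0.04 over 8 soluble genes, so the soluble median rested on genes with such overlaps.

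Exons of 13 of the 31 genes overlap those of another annotated gene on either strand, and so do those of 37.7% of all genes with at least 1 FPKM. Without these, 4 of 18 genes were at least 1.5-fold lower, which is 22.2% against 13.8% of all genes treated in the same way, and the median log2 ratio was -0.19. The 4 were Sqle, Nsdhl, Hsd17b7 and Fasn. Among the genes left out were Fdft1, Fdps, Lbr, Lss and Idi1, all 1.5-fold lower.

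Genes around the pathway, taken from lists of 79 symbols of which 65 had at least 1 FPKM, had 19 members at least 1.5-fold lower (29.2%, beside 13.4% of all genes) and 4 higher (beside 10.8%), with a median log2 ratio of -0.33. Both proteases that release SREBP were lower. Mbtps1, which makes the first cut, had 14.6 and 7.01 FPKM, 1.95-fold lower, and Mbtps2, which makes the second, had 3.64 and 2.55 FPKM, 1.31-fold lower. In the list of other sterol synthesis genes 2 of 11 were 1.5-fold lower (18.2%, beside 13.4% of all genes), Tmem97, a sterol isomerase homologue that binds NPC1 (73.8 and 39.8 FPKM), and Cyb5b, a cytochrome b5 (32.3 and 16.8 FPKM). In the same list Acat1, the mitochondrial thiolase, was 1.51-fold higher (15.3 and 23.6 FPKM).

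Genes for the regulated degradation of sterol enzymes and INSIG had log2 ratios below 0 in all 8 cases, where 54% of all genes did, with a median of -0.40. Of the 8, 2 were at least 1.5-fold lower (25%, beside 13.4% of all genes). Ube2g2, at a log2 ratio of -0.05, lay at the median of all genes. March6, the ligase for squalene monooxygenase, had 13.0 and 6.53 FPKM, 1.86-fold lower, so the gene for the enzyme and that for its ligase were both lower.

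Sterol uptake and storage genes had lower medians than the synthesis genes, a difference that was not tested. Of 12 uptake and efflux genes 7 had values, with a median log2 ratio of -0.83. Among the 7, 4 were at least 1.5-fold lower (57.1%, beside 13.4% of all genes). Lipa, the lysosomal lipase that frees cholesterol from its esters, had 30.01 and 11.27 FPKM, 2.53-fold lower. Npc1, which exports cholesterol from lysosomes and is named here after its values were seen, had 4.88 and 1.19 FPKM, 2.68-fold lower, and its exons overlap those of another gene. Npc2, its soluble partner, had 84.4 and 84.1 FPKM. Nr1h2, a sterol-sensing nuclear receptor gene, had 14.1 and 7.13 FPKM. Of the esterification genes Soat1 had 9.18 and 3.86 FPKM and Nceh1, which hydrolyses the esters, had 11.5 and 5.53 FPKM.

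For fatty acid elongation and desaturation the median log2 ratio of 12 genes was -0.54. Of the 12, 5 were at least 1.5-fold lower (41.7%, beside 13.4% of all genes) and none higher (beside 10.8%). Scd1 and Scd2, the desaturases that make oleate, were more abundant per length than any of the 31 genes. Scd1 had 116 and 81.4 FPKM, 1.42-fold lower, and Scd2 had 166 and 133 FPKM, 1.25-fold lower. Tecr, the reductase of the elongation cycle, had 29.4 and 13.4 FPKM, 2.11-fold lower, and Hsd17b12, which acts in the same cycle, had 50.6 and 26.2 FPKM, 1.90-fold lower. Elovl5, which elongates polyunsaturated fatty acids, was 1.67-fold lower. Fads1, a desaturase of polyunsaturated fatty acids, was 2.67-fold lower and Fads2, which acts before it, was 1.23-fold lower.

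**Figure D4:**
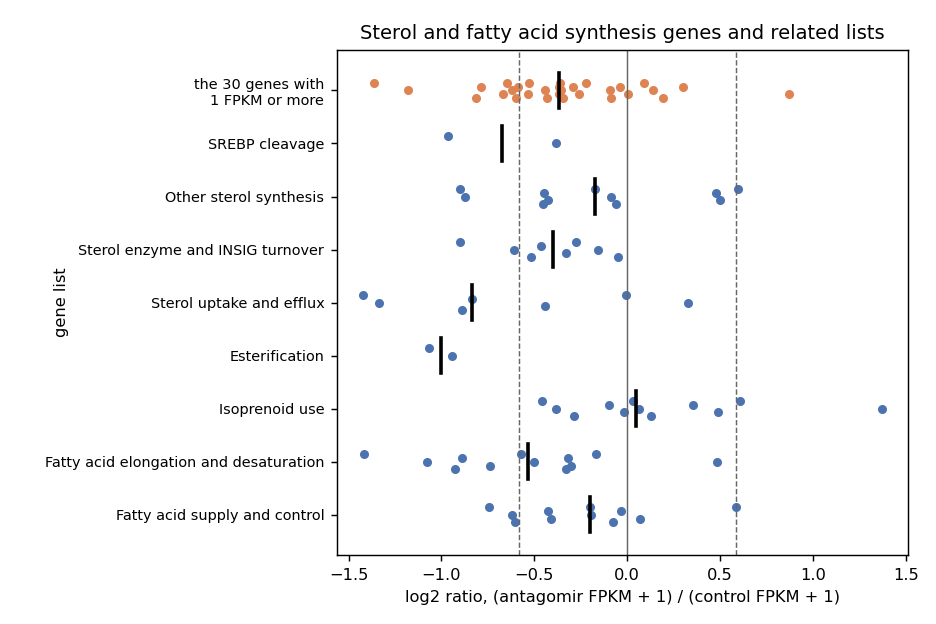
Log2 ratio of each gene with at least 1 FPKM in either library, for 30 of the 31 genes (orange) and for 8 related lists (blue), with a black bar at each median and dashed lines at 1.5-fold in both directions. The medians run from -1.004 for esterification, over 2 genes, to 0.04 for isoprenoid use, with -0.36 for sterol and fatty acid synthesis.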

How the data were processed

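The authors deposited gene-level FPKM values, 1 column per library, in a table of 10992 protein-coding genes. Cutadapt, HISAT2, StringTie 1.3.3 and build GRCm38 are named per the submitters' processing notes. Polyadenylated RNA selection and a stranded kit are named per the labels' protocols, which also list separate 3′ and 5′ adaptor ligations as used for small RNA, so it is unclear how the libraries were made. Annotation, settings and strand use are not stated there. These values are relative to the library total.

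Lines of 10 symbols were summed. Log2 ratios used a pseudocount of 1, and genes reaching 1 FPKM in either library entered the counts at 1.5-fold and 2-fold. With 1 library per group no test was run. Whole-read steps were sought in single-transcript genes. The best of many trial steps left 39.7% (control) and 42.6% (antagomir) of low values within 0.1 of a whole number. A fixed step gives 20% by construction, and the best of many can exceed that without any steps. These shares therefore cannot decide whether steps exist, and depth is unknown. Length and GC content of the longest transcript and exon overlaps came from GENCODE M21 on GRCm38, and their trend was removed by a quadratic fit over all genes. Promoters came from RefSeq (GRCm38.p6).

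All 31 genes are named, as are related genes with at least 5 FPKM and a 1.5-fold difference, 8 set genes of the related lists and genes overlapping the 31; some of these are not reported here. The genes, lists and limits were chosen with earlier results of these data known. Scripts ran in Python 3.11.15, pandas 2.3.3 and numpy 2.4.6 and were tested on simulated data. Alternatives were pseudocounts of 0.1 and 0.01, no minimum or 5 FPKM, rescaling to TPM, median centring, rescaling without 97 mitochondrial, ribosomal protein and hemoglobin genes, removal of the trend, and omission of overlapping genes.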

Additional observations from a re-analysis of the deposited data

How the results depend on the processing

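The median log2 ratio of the sterol and fatty acid synthesis genes was below 0 under all 9 alternatives, from -0.47 as TPM to -0.19 without overlapping genes. The count of these genes 1.5-fold lower went from 9 of 30 to 4 of 30 with the trend over length and GC content removed. That is 13.3%, beside 13.2% of all genes. Without overlapping genes it was 4 of 18 (22.2%, beside 13.8% of all genes). The count of genes 1.5-fold higher went from 1 to 0 with the trend removed. Under the other 7 alternatives the count of genes 1.5-fold lower was between 6, on median centring, and 11, as TPM. These were 6 and 11 of 30 genes, beside 1183 and 2037 of all 10201 genes in the same settings. The genes gained as TPM were Elovl6 and Insig1. For the mevalonate genes the median was -0.0787 as TPM, -0.0505 when rescaled without the 97 mitochondrial, hemoglobin and ribosomal protein genes, and -0.0484 with the trend removed. For isoprenoid diphosphate genes it came under the 1.5-fold limit at -0.54 on median centring and -0.56 with the trend removed, as did the SREBP-cleaving proteases at -0.55 with the trend removed. Fatty acid synthesis passed the limit at -0.59 as TPM, and elongation and desaturation at -0.64 as TPM and -0.61 when rescaled without those families. The isoprenoid use median turned to -0.0309 as TPM and -0.0033 when rescaled without those families. Beyond the trend and the overlaps, whose construction moves or removes genes, the cause was not tested. No paired analysis was possible because each group has 1 library, and none could be left out. Depth is unknown, so the precision of genes near 1 FPKM, such as Tm7sf2, Dhcr7 and Acaca, is too.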

Other observations

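Genes that use isoprenoids for protein prenylation, dolichol or ubiquinone stood at a median of 0.04 over 12 genes on the log2 scale, a sign that turned under 2 rescalings. None of the 12 was at least 1.5-fold lower (beside 13.4% of all genes) and 2 were higher (beside 10.8%). Icmt, which methylates prenylated proteins, had 5.75 FPKM in the control library against 16.5 FPKM with the antagomir, 2.59-fold higher, and its exons overlap those of Rnf207. Fnta, the shared subunit of farnesyl and geranylgeranyl transferases, had 19.8 and 30.6 FPKM, 1.52-fold higher. With the trend over length and GC content removed its log2 ratio was 0.52, under the limit. Fntb, the farnesyl-specific subunit, was lower, at 11.7 and 8.23 FPKM.

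For fatty acid supply and control the median log2 ratio of 11 genes was -0.20. Gpam, which starts glycerolipid synthesis, was 1.68-fold lower (11.4 and 6.37 FPKM), Mid1ip1, an activator of acetyl-CoA carboxylase, 1.54-fold lower (33.2 and 21.3 FPKM) and Acsl3, an acyl-CoA synthetase of the ER, 1.52-fold lower (24.1 and 15.5 FPKM). Prkag1, a subunit of AMP-activated kinase, was 1.503-fold higher (47.3 and 71.6 FPKM), and Prkaa1, its catalytic subunit, had 23.2 and 22.6 FPKM. With the trend over length and GC content removed, Acsl3 (a log2 ratio of -0.52) and Prkag1 (0.42) came under the 1.5-fold limit.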
